A study of Cricetulus griseus with 3 samples.

Results

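The genes described here encode the proteins of the small subunit of the cytosolic ribosome in CHO, a cell line from the ovary of the Chinese hamster, Cricetulus griseus. Members were the transcripts whose deposited human protein match was 1 of 33 UniProt accessions, namely those of the human RPS proteins, RPSA, FAU and RACK1. Of these 33, 31 accessions had a transcript in the table of 21607 transcripts, and the other 2 were not analysed here through this match. The 31 accessions stood on 76 transcripts, so the transcript with the most reads was kept for each and 45 were left out. The table gives accessions and no gene names, so each transcript is called here by the name of its human protein. The 6 members with a hamster gene symbol in RefSeq had the same name by both routes.

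Poly-A RNA was sequenced from microtubule preparations of 3 stages, with 1 library each. Every culture was first held in 2 mM thymidine for 16 h, which arrests DNA synthesis, and interphase microtubules were isolated from such cells. The sample titled Mitosis, headed Metaphase in the table, came from cells released for 5 h, kept in the microtubule poison nocodazole at 0.1 ug/ml for 4 to 5 h, collected by shake-off and given fresh medium for 15 min. Midbodies, the bridges that join daughter cells until they separate, came from cells treated in the same way with 65 min in fresh medium. The stage, the drug exposure and the structure purified cannot be told apart in this design, and fewer cells or structures and less RNA in each cannot be told apart either. No total RNA of the cells was among the 3 samples. No stage has a second library, so differences could not be set against a spread between replicates, and p-values are not given. The intervals quoted are exact 95% binomial intervals on reads and cover counting error only.

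The small subunit binds the mRNA and the initiator tRNA, scans for the start codon and holds the decoding centre, where codon and anticodon pair. Its proteins are built around a single ribosomal RNA in a head and a body, and assembly, which begins in the nucleolus, uses them in equal numbers. Ribosomal protein mRNAs are among the most abundant of a dividing cell. In mammals they begin with a terminal oligopyrimidine (TOP) tract, through which the kinase mTOR and the RNA-binding protein LARP1 control their translation as a group.

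The libraries held 5134865 reads for midbodies, 8059745 for the mitotic sample and 12672056 for interphase. As a check of the stage, 10 genes of mitosis were read in the same table. All 10 had a higher RPKM (reads per length of transcript and depth of library) in the midbody than in the mitotic library, with a median log2 ratio of 0.33. The same held for 6129 of the 13131 transcripts at 1 RPKM or more in either library. Among the 822 transcripts at a mean of 100 RPKM or more it held for 617. Between the mitotic library and interphase, 5 of the 10 were higher and 5 lower, beside 5964 and 7212 of 13176 transcripts. The ratio was highest for CENPE, at 2.06 (2.00 to 2.13). It was lowest for CCNB1, the mitotic cyclin B1, with 68.3 RPKM in midbodies, 62.8 in the mitotic sample and 108 in interphase. Against interphase, 6 of the 10 were higher in midbodies and 4 lower, from CCNB1 at 0.633 to KIF23 at 3.47.

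All 31 small subunit members were abundant in all 3 libraries. The lowest level of any member was 106 RPKM in midbodies, 107 in the mitotic sample and 109 in interphase. The median over members was 313 RPKM in midbodies, 266 in the mitotic sample and 267 in interphase, and the highest level was 625, 413 and 594 RPKM in the same order. Of the 100 most abundant transcripts, members made up 21 in the midbody, 22 in the mitotic and 23 in the interphase library. Their levels spread by a coefficient of variation of 33.9%, 30.5% and 35.3% over members. The kept transcripts differed in level by up to 5.89-fold in the midbody library, 3.88-fold in the mitotic library and 5.47-fold in interphase. The lowest in the mitotic and interphase libraries was RPS27. Its kept transcript held only 46.5% and 49.4% of the reads with that protein match, so these spreads are those of single transcripts and not of whole genes.

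Together the members took 0.567% of the midbody reads (0.561 to 0.574), 0.481% of the mitotic reads (0.476 to 0.486) and 0.545% of the interphase reads (0.541 to 0.549). By reads the mitotic library therefore held the smallest share. As a share of summed RPKM, which counts each transcript per length, the values were 2.06%, 1.81% and 1.78%, with midbodies again highest and interphase lowest. The order of the mitotic and interphase libraries thus depended on whether length was taken into account.

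**Figure D1:**
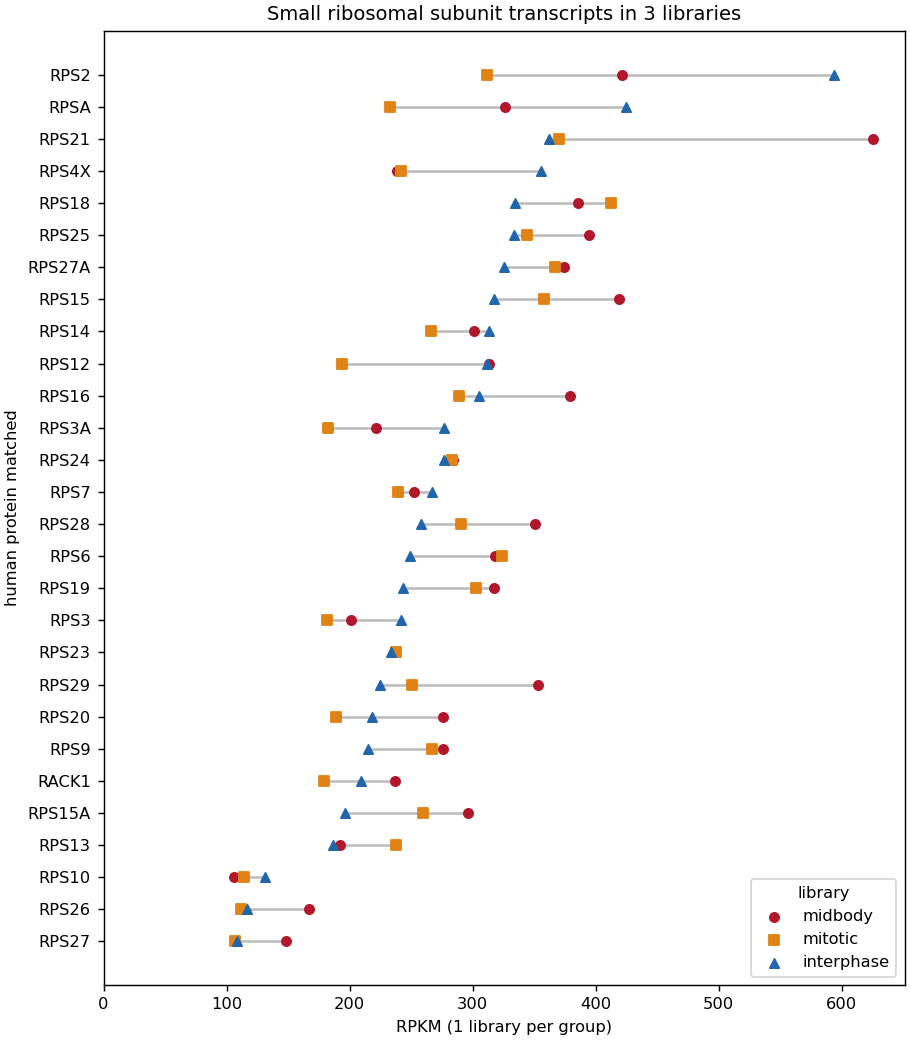
Level of each of 28 of the 31 small ribosomal subunit transcripts in RPKM (x axis, linear) in the midbody, mitotic and interphase libraries, 1 point per library, ordered by the interphase level; the grey line joins the lowest and highest library and is not an error bar. RPS2 and RPSA stand far to the right in interphase, and RPS21 in midbodies at 625 RPKM.

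In no comparison was any of the 31 members 2-fold higher or 2-fold lower. Log2 ratios were computed from RPKM + 1, and a transcript entered a comparison if either library had it at 1 RPKM or above. Between midbodies and the mitotic sample, few transcripts of any kind passed this line: of the 13131 compared, 2.09% were higher in midbodies by 2-fold or more and 1.8% lower. Against interphase, 14.7% of 13059 transcripts were higher in midbodies by 2-fold or more and 20.8% lower. In the mitotic library, 16.6% of 13176 were higher by 2-fold or more and 20.7% lower than in interphase. Among the 822 transcripts at a mean of 100 RPKM or more, a level that all 31 members reach, 20.3% were 2-fold higher and 3.28% 2-fold lower in midbodies than in interphase. The standard deviation of the midbody to interphase log2 ratio was 0.35 over the 31 members, 0.30 over large subunit genes and 0.86 over those 822 transcripts. Over the 221 of the 822 under 800 bases it was 0.68, but the interquartile range was 0.50, near the 0.44 of the members. Between midbodies and the mitotic sample the standard deviation was 0.26 over members and 0.33 over the 822. The interquartile range there was wider for members, 0.42 against 0.33.

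Within that 2-fold range the 3 libraries were ordered differently from gene to gene. Midbodies had the highest level of the 3 for 19 members, interphase for 8 and the mitotic sample for 4. Over all 13325 transcripts at 1 RPKM or more in any library, midbodies were highest for 22.4%, interphase for 48.9% and the mitotic sample for 28.7%. Most of these are less abundant than the members, so the shares are not like for like. Of the 822 abundant transcripts, 617 were higher in midbodies than in the mitotic sample and 558 higher than in interphase. The most common order, in 12 members, was midbody above mitotic above interphase. RPS2, RPSA, RPS3, RPS3A, RPS7 and RPS14 followed the order interphase, midbody, mitotic.

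Between midbodies and mitotic microtubules, the median log2 ratio of the 31 members was 0.22, against -0.03 over all transcripts and 0.16 over the 822 abundant ones. The 822 include the members, and the 2 medians lay close together. Of the members, 25 lay above 0 and 6 below. The 221 abundant transcripts under 800 bases, many members among them, were alike, with a median of 0.23, 180 above 0 and 41 below. The counting interval lay above 1 for 20 members and below 1 for 2, and over all transcripts above 1 for 21.3% and below 1 for 24.5%. Intervals narrow as reads increase and members are abundant, so such shares are not like for like, here or in the comparisons below. At 1.5-fold, 2 members, RPS21 and RPS12, were higher in midbodies and 0 were lower, beside 7.11% and 8.56% of all transcripts.

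RPS21, a small protein of the body of the subunit (XM_003503114.1, matched to P63220), had 625 RPKM in midbodies, 371 in the mitotic sample and 362 in interphase. The midbody library stood apart, and the other two did not differ beyond counting error, their ratio having an interval of 0.941 to 1.11. Midbodies exceeded the mitotic sample by 1.69-fold (1.54 to 1.85) and interphase by 1.73-fold (1.59 to 1.88), the highest member ratio in both comparisons. The kept transcript held 88.6% of the midbody reads under this accession. The next transcript under it, XM_003503222.1, was also highest in midbodies, with 83.8 RPKM against 47.7 and 56.0. Both transcripts had fractional reads in all 3 libraries, so their values may not be independent.

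RPS12, a protein of the head (XM_003510911.1, matched to P25398), showed a dip in the mitotic library, with 313 RPKM in midbodies, 194 in the mitotic sample and 311 in interphase. Midbodies and interphase did not differ beyond counting error, with a ratio of 1.01 (0.933 to 1.08). Midbodies were above the mitotic sample by 1.61-fold (1.47 to 1.77). Its reads were whole numbers in all 3 libraries and no other transcript carried its accession, so no reads shared between transcripts were seen here.

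RPS26, at the exit of the mRNA channel, had 167 RPKM in midbodies, 112 in the mitotic sample and 117 in interphase, and midbodies exceeded the mitotic sample by 1.49-fold (1.33 to 1.67). RPS20, a head protein that is ubiquitinated when ribosomes collide, had 276, 189 and 218 RPKM in the same order, a midbody to mitotic ratio of 1.46 (1.31 to 1.63). In both genes midbodies were highest and the reads were partly fractional.

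At the other end stood RPS13, a body protein, with 192 RPKM in midbodies, 238 in the mitotic sample and 186 in interphase. The mitotic library alone was high, and midbodies were lower than it by a factor of 1.24 (1.10 to 1.39). RPS10, a head protein and another target of ubiquitination on collided ribosomes, had 106, 115 and 132 RPKM, and midbodies were lower than the mitotic sample by a factor of 1.08 (1.01 to 1.16). RPS18, which joins head and large subunit, had 386, 413 and 334 RPKM. RPS6 (XM_003498003.1, matched to P62753), the classic substrate of the S6 kinases, had 319, 324 and 249 RPKM. RPS4X had 239, 242 and 355 RPKM. For RPS18, RPS6 and RPS4X the interval of the midbody to mitotic ratio contained 1.

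Against interphase, midbody ratios of the members had a median log2 of 0.21, with 23 above 0 and 8 below. Over all transcripts the median was -0.15 and over the 822 abundant ones 0.32, so members lay between them. Of all transcripts 5807 lay above 0 and 7252 below, and of the 822 abundant ones 558 and 264. The 221 abundant transcripts under 800 bases were again like the members, with a median of 0.24, 161 above 0 and 60 below. The counting interval lay above 1 for 18 members and below 1 for 6, beside 34.4% and 45.4% of all transcripts. At 1.5-fold, 4 members were higher and 0 lower, against 25.1% and 34.2% of all transcripts, or 36.3% and 10.7% of the abundant ones.

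RPS21, RPS29 and RPS15A were among those 4. RPS29 (XM_003512257.1, matched to P62273), a small zinc-binding protein of the head, had 353 RPKM in midbodies, 251 in the mitotic sample and 224 in interphase, and midbodies exceeded interphase by 1.57-fold (1.40 to 1.77). RPS15A, of the body, had 296, 260.1 and 196 RPKM in that order, a ratio of 1.51 (1.39 to 1.63). In RPS29 and RPS15A the mitotic library lay between the others. RPS15A sat at the line and its reads were whole. RPS29 had fractional reads. With a pseudocount of 5 in place of 1, 2 members were past 1.5-fold.

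Of the 8 members highest in interphase, some were long: the transcript of RPS2 has 905 bases, that of RPSA 1023 and that of RPS3A 996, while that of RPS14 has 535. RPS2 (NM_001244043.1, matched to P15880), at the entry of the mRNA channel, had 594 RPKM in interphase, 421 in midbodies and 311 in the mitotic sample. RPSA (NM_001244033.1, matched to P08865), known also as a precursor of the laminin receptor, had 425, 326 and 233 RPKM in that order. RPS3A (XM_003504173.1, matched to P61247), on the platform of the body, had 277, 222 and 183 RPKM. All 3 genes thus had the mitotic library lowest and midbodies in between. Midbodies were below interphase by a factor of 1.41 (1.34 to 1.48) for RPS2, 1.30 (1.23 to 1.38) for RPSA and 1.25 (1.17 to 1.34) for RPS3A.

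RPS4X (NM_001246673.1, matched to P62701), the X-linked form of a body protein in mammals, had 355 RPKM in interphase against 239 in midbodies and 242 in the mitotic sample. Its 2 libraries of dividing cells did not differ beyond counting error, and midbodies were below interphase by a factor of 1.49 (1.39 to 1.59). RPS10 was lower by 1.24 (1.16 to 1.32). RPS3, which lines the mRNA entry, had 201 RPKM in midbodies, 182 in the mitotic sample and 242 in interphase, lower in midbodies than in interphase by a factor of 1.20 (1.11 to 1.31). Its kept transcript had fractional reads and held 73.3% of the midbody reads with that match. The other RPS3 transcripts had midbody to interphase ratios of 0.919 (0.788 to 1.07) and 1.01 (0.697 to 1.44), whose intervals contained 1.

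**Figure D2:**
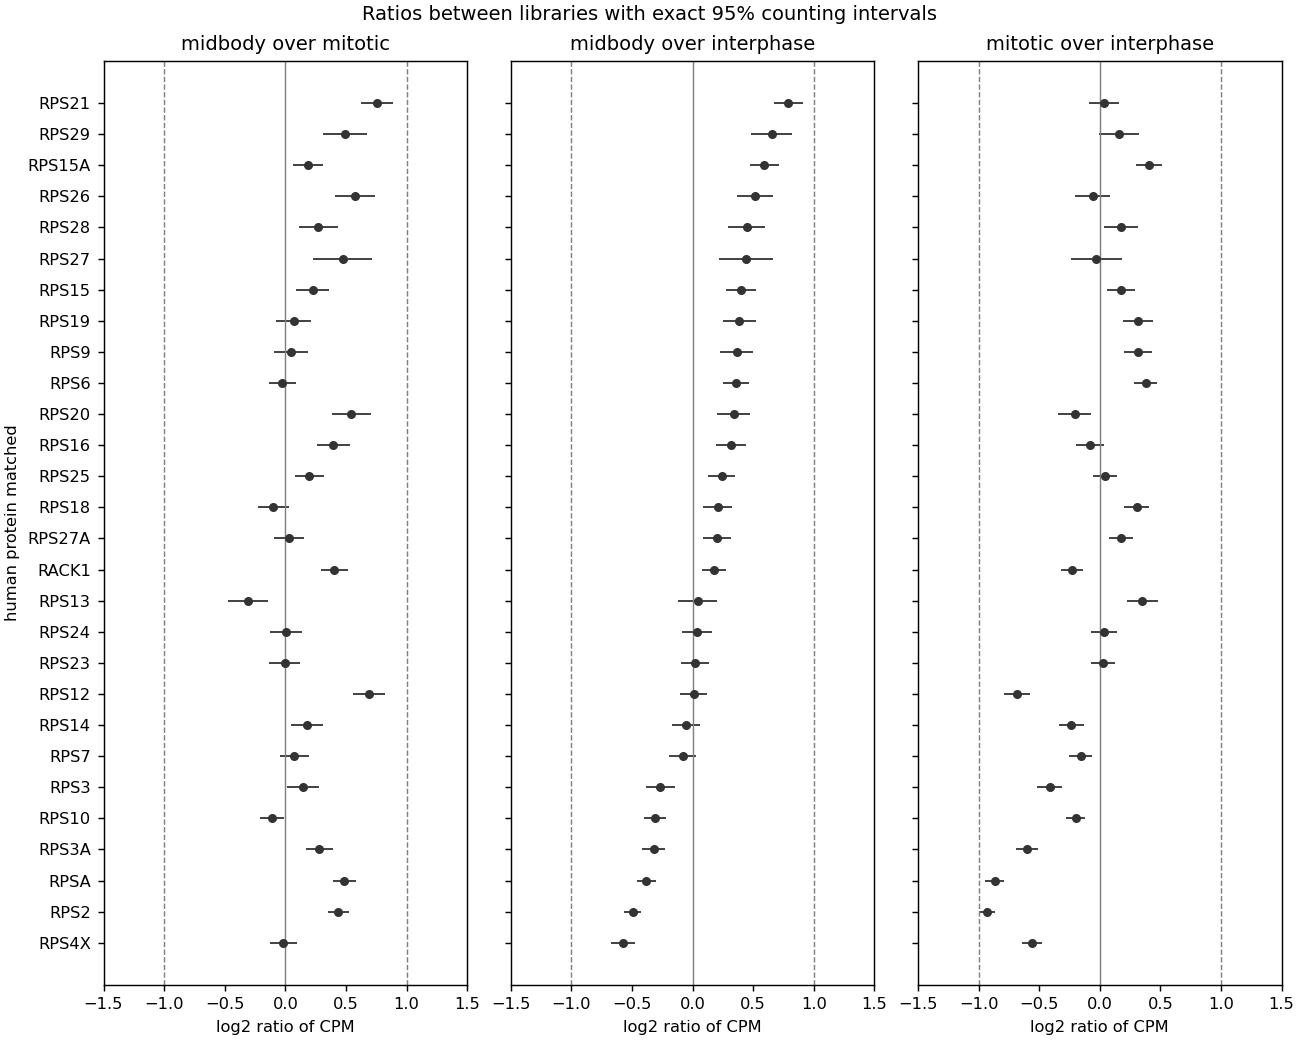
Log2 ratio of CPM (reads scaled by library total) for each of 28 of the 31 small subunit members (points) with exact 95% counting intervals (bars), in 3 comparisons between single libraries, ordered by the midbody to interphase ratio; dashed lines mark 2-fold. No point passes a dashed line; RPS2 and RPSA come nearest, in the mitotic to interphase panel.

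Between the mitotic and interphase libraries, members were spread on both sides of 0, with a median log2 ratio of 0.02, 16 above and 15 below. The median was -0.13 over all transcripts and 0.16 over the abundant ones. The 221 abundant transcripts under 800 bases had a median of -0.002, with 110 above 0 and 111 below. The counting interval lay above 1 for 10 members and below 1 for 12, beside 36.9% and 46.4% of all transcripts. At 1.5-fold, 0 members were higher and 4 lower, beside 26.7% and 33.8% of all transcripts. The median turned negative, at -0.12, over the 14 members without fractional reads, and at -0.16 over the 13 members with a single transcript per accession.

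The 4 lower members were RPS2, RPSA, RPS12 and RPS3A. RPS2, whose RPKM values are given above, was lower in the mitotic sample by a factor of 1.91 (1.82 to 2.00) and RPSA by 1.82 (1.73 to 1.92). RPS12 was lower by 1.60 (1.49 to 1.73) and RPS3A by 1.52 (1.43 to 1.61). RPS4X followed at 1.47 (1.39 to 1.56). RPS2, RPS12 and RPS4X had whole reads only, while RPSA and RPS3A had fractional reads.

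The highest mitotic to interphase ratios belonged to RPS15A at 1.32 (1.23 to 1.43), RPS6 at 1.30 (1.22 to 1.39), RPS13 at 1.28 (1.17 to 1.40), RPS9 at 1.25 (1.15 to 1.35) and RPS19 at 1.24 (1.14 to 1.35). For RPS6 the kept transcript held 69.1% of the interphase reads with that match. Another RPS6 transcript, of 256 bases, went the other way, at 0.703 (0.620 to 0.795). RPS9, a body protein, had 276 RPKM in midbodies, 267 in the mitotic sample and 215 in interphase. RPS19, a head protein whose gene is often mutated in Diamond-Blackfan anaemia, had 317, 302 and 243 RPKM. In both genes interphase was lowest, and midbodies and the mitotic sample did not differ beyond counting error.

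Several members differed little between the libraries. RPS23, which reaches the decoding centre, had 237 RPKM in midbodies, 238 in the mitotic sample and 234 in interphase. RPS24 had 284, 283 and 276 RPKM. The counting intervals of all 3 ratios contained 1 in both genes. RPS7 had 252, 239 and 267 RPKM, and RPS14 had 301, 266 and 313 RPKM. In RPS7 and RPS14 the mitotic library was lowest, and the midbody to interphase interval contained 1. The mitotic sample was below interphase by a factor of 1.12 (1.04 to 1.19) for RPS7 and 1.18 (1.09 to 1.27) for RPS14. Midbodies exceeded the mitotic sample by 1.13-fold (1.03 to 1.24) for RPS14, while for RPS7 that interval contained 1.

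The remaining members were highest in midbodies. RPS15, of the head near the decoding site, had 419 RPKM in midbodies, 358 in the mitotic sample and 318 in interphase, and RPS16, whose tail reaches toward the bound tRNA, had 379.6, 289 and 305. RPS25, of the head and required by several viral entry sites for ribosomes, had 394, 344 and 334 RPKM. RPS28, also of the head, had 351, 290.9 and 258 RPKM. The zinc-binding body protein RPS27 had 148, 107 and 109 RPKM, with midbodies above the other libraries, whose ratio did not differ from 1 beyond counting error.

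RPS27A, made as a fusion with ubiquitin, had 375 RPKM in midbodies, 367 in the mitotic sample and 326 in interphase. RACK1 (XM_003504042.1, matched to P63244), a scaffold for kinases that docks on the head, had 237, 179 and 209.6 RPKM, a midbody to mitotic ratio of 1.32 (1.23 to 1.43). Fau, which encodes a ribosomal protein fused to a ubiquitin-like protein, was found by its RefSeq symbol under another human accession, P35544, and is not counted among the 31. It had 322, 274 and 230.3 RPKM, with midbodies highest and interphase lowest. Its midbody to interphase ratio was 1.39 (1.27 to 1.53).

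Head and body proteins overlapped in every comparison. The 14 head members had a median midbody to mitotic log2 ratio of 0.25 and the 17 body members 0.19. Against interphase the midbody medians were 0.28 for the head and 0.04 for the body, with ranges of -0.31 to 0.65 and -0.57 to 0.79. In the mitotic to interphase comparison the medians were 0.03 and -0.03. The body group holds RPS2, RPSA, RPS3A and RPS4X.

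The midbody to interphase ratio was lower in longer members. Spearman's rho between transcript length and that log2 ratio was -0.66 over the 31 members, and -0.63 without RPS10, whose 2277 bases made it the longest. These points share the same libraries, and the value is a description across genes. The 14 members under 500 bases had a median log2 ratio of 0.37, the 11 of 500 to 799 bases 0.04, and the 6 of 800 bases or more -0.35. Those 6 were RPS4X, RPS2, RPS3A, RPSA, RACK1 and RPS10, of which 5 were highest in interphase. None of the 14 short members was highest in interphase, and 12 were highest in midbodies, beside 48.9% and 22.4% of all transcripts of any length and level.

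For the mitotic to interphase ratio rho was -0.52 and the medians of the 3 length classes were 0.17, -0.06 and -0.58. For midbodies against the mitotic sample rho was -0.16, with medians of 0.25, 0.18 and 0.34. The large subunit proteins had a rho of -0.34 in the midbody to interphase comparison over 43 genes, with medians of 0.41, 0.22 and 0.07 in the same length classes. Over the 822 abundant transcripts rho was 0.20, the opposite sign, with medians of 0.33, 0.14 and 0.39. The part of fragment size, RNA integrity or poly-A selection in this relation was not tested.

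**Figure D3:**
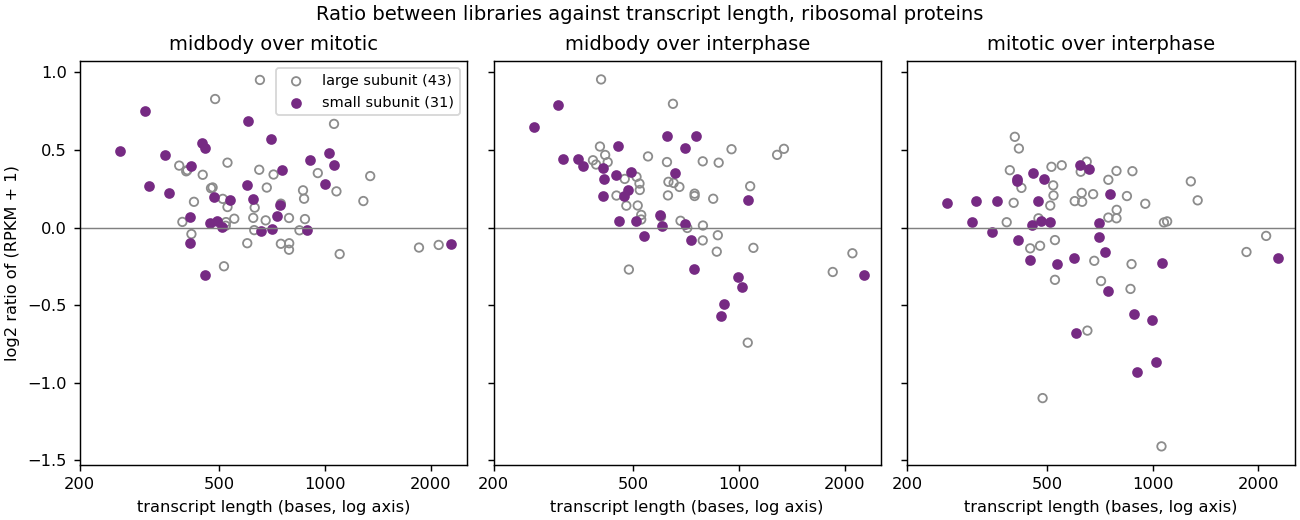
Log2 ratio of (RPKM + 1) against transcript length in bases (log axis) for 31 small subunit members (filled points) and 43 large subunit genes (open circles), 1 point per gene, in 3 comparisons between single libraries. In the middle panel the small subunit points fall from RPS29 and RPS21 at the left to RPS2, RPSA and RPS4X on the right, with a rho of -0.66.

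Reads shared between near-identical transcripts limit single members. The reads of 17 of the 31 members were fractional in at least 1 library, as when a read is divided between several transcripts, and 18 members had more than 1 transcript under their accession. RPS27 had 10 transcripts, and the kept one held 49.1% of the midbody reads. RPS26 had 5, with 50.8% in the kept one. Ribosomal protein genes have many processed copies in mammalian genomes, and the deposited table does not say which of these transcripts are copies.

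Transcripts under one accession did not always point the same way. The kept RPS6 transcript had 319 RPKM in midbodies and 249 in interphase, whereas XM_003515609.1, a 256-base transcript with the same match, had 202 and 257. Their midbody to interphase ratios were 1.28 (1.19 to 1.38) and 0.786 (0.682 to 0.904), on opposite sides of 1. For RPS26, the transcript XM_003499935.1 had 111 RPKM in midbodies and 42.2 in interphase, a ratio of 2.64 (2.15 to 3.24), against 1.43 (1.29 to 1.58) for the kept one. The second RPSA transcript, XM_003498396.1, stood below interphase as the kept one did, with 43.7 against 65.5 RPKM. These transcripts were singled out after their values were seen.

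Large subunit genes of the ribosome gave a similar picture. Of 47 accessions 44 had a transcript, 43 of which passed 1 RPKM. Their median log2 ratio was 0.15 for midbodies against the mitotic sample, 0.24 for midbodies against interphase and 0.15 for the mitotic sample against interphase. Midbodies were the highest library for 27 of 44, beside 22.4% of all transcripts of any level, most of them less abundant. None of the 43 was 2-fold higher or lower in midbodies in either comparison. Of all transcripts, 2.09% were higher and 1.8% lower than in the mitotic sample, and 14.7% and 20.8% than in interphase. Of the 43, 2 were 2-fold lower in the mitotic sample than in interphase, RPLP0 at -1.41 and RPL29 at -1.10 log2, beside 20.7% of all transcripts. RPLP0 of the ribosomal stalk, with 162 RPKM in midbodies, 101 in the mitotic sample and 271 in interphase, had the same order of libraries as RPS2 and RPSA. RPLP1, another stalk protein, had the highest midbody to mitotic ratio of the list, 1.94 (1.75 to 2.15), and RPL30 the highest midbody to interphase log2 ratio, 0.95. By reads the RPL30 ratio was 1.999, with a wide interval of 1.41 to 2.82 that contained 2. The difference between the subunits was not tested, with single libraries.

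The mitochondrial ribosome has its own small subunit, encoded by other nuclear genes, of which 25 were read. Their median levels, 46.4 RPKM in midbodies, 41.9 in the mitotic sample and 47.8 in interphase, were lower than those of the cytosolic proteins. The median log2 ratio was 0.11 for midbodies against the mitotic sample and -0.12 against interphase, where 1 was 2-fold lower (MRPS16, -1.31) and 0 were 2-fold higher (MRPS18B came nearest at 0.97), beside 20.8% and 14.7% of all transcripts. In the mitotic sample 4 of 25 were 2-fold lower than in interphase, MRPS12 most, at -1.32, beside 20.7% of all transcripts.

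Genes for assembly factors of the small subunit, 24 in all, had medians of 0.06, -0.07 and -0.11 log2 for midbody over mitotic, midbody over interphase and mitotic over interphase. In midbodies, NOP14, a component of the early assembly particle, was 2.10-fold higher than in interphase (1.98 to 2.24). PNO1, which guards the end of the immature ribosomal RNA, was lower by a factor of 2.24 (1.85 to 2.74). These 2 were the only assembly factors past 2-fold there, beside 14.7% of all transcripts higher and 20.8% lower. NAT10, which acetylates the ribosomal RNA, had the highest mitotic to interphase log2 ratio, 0.91.

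Regulators that act on ribosomal protein mRNAs had a wider spread of midbody to interphase log2 ratios, with a standard deviation of 0.89 against 0.35 for the small subunit members and 1.10 over all transcripts. Of 14 genes of the mTOR and LARP list, 6 were 2-fold lower and 1 was 2-fold higher in midbodies than in interphase, beside 20.8% and 14.7% of all transcripts, with a median log2 ratio of -0.65. EIF4EBP2 and EIF4EBP1, which encode repressors of cap-dependent initiation that mTOR inactivates, had 28.0 and 57.7 RPKM in midbodies, 18.9 and 42.1 in the mitotic sample, and 102 and 147 in interphase. Interphase was by far the highest library for both. EIF4EBP2 was lower in midbodies than in interphase by a factor of 3.63 (3.28 to 4.04). RPTOR, the scaffold of mTOR complex 1, had a log2 ratio of -1.44 and MTOR itself -0.54.

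The kinases that phosphorylate RPS6 lay on both sides. RPS6KB2 had 36.8 RPKM in midbodies, 49.99 in the mitotic sample and 14.5 in interphase. Its midbody to interphase ratio was 2.54 (2.16 to 2.98) and its mitotic to interphase ratio 3.45 (3.01 to 3.97). RPS6KB1 had 95.5, 86.6 and 58.8 RPKM and a midbody to interphase ratio of 1.62 (1.51 to 1.75). RPS6KA3, of the RSK family, had 15.6, 21.1 and 44.4 RPKM in the same order and was lower in midbodies than in interphase by a factor of 2.84 (2.60 to 3.11). RPS6KA1, also of that family, had 29.9, 45.7 and 61.1 RPKM and was lower by a factor of 2.04 (1.82 to 2.30). Both had interphase highest and midbodies lowest. Against the mitotic sample, 0 of the 14 genes passed 2-fold in midbodies, beside 2.09% of all transcripts higher and 1.8% lower. The median was -0.25. LARP1 was not analysed here.

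Other mRNAs with a TOP tract, 15 in all, were less uniform than the small subunit members against interphase. Their midbody to interphase log2 ratios had a standard deviation of 0.48 and ran from -0.90 for the elongation factor gene EEF1A1 to 0.60 for NAP1L1, with a median of 0.02. PABPC1, which binds poly-A tails, was at 0.52 and the elongation factor gene EEF2 at 0.18. Against the mitotic sample their median was 0.13, with vimentin (VIM) highest at 0.50 and the splicing regulator gene HNRNPA1 lowest at -0.34. In the mitotic to interphase comparison 2 of 15 were 2-fold lower, EIF3H at -1.04 and EEF1A1 at -1.03, beside 20.7% of all transcripts.

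**Figure D4:**
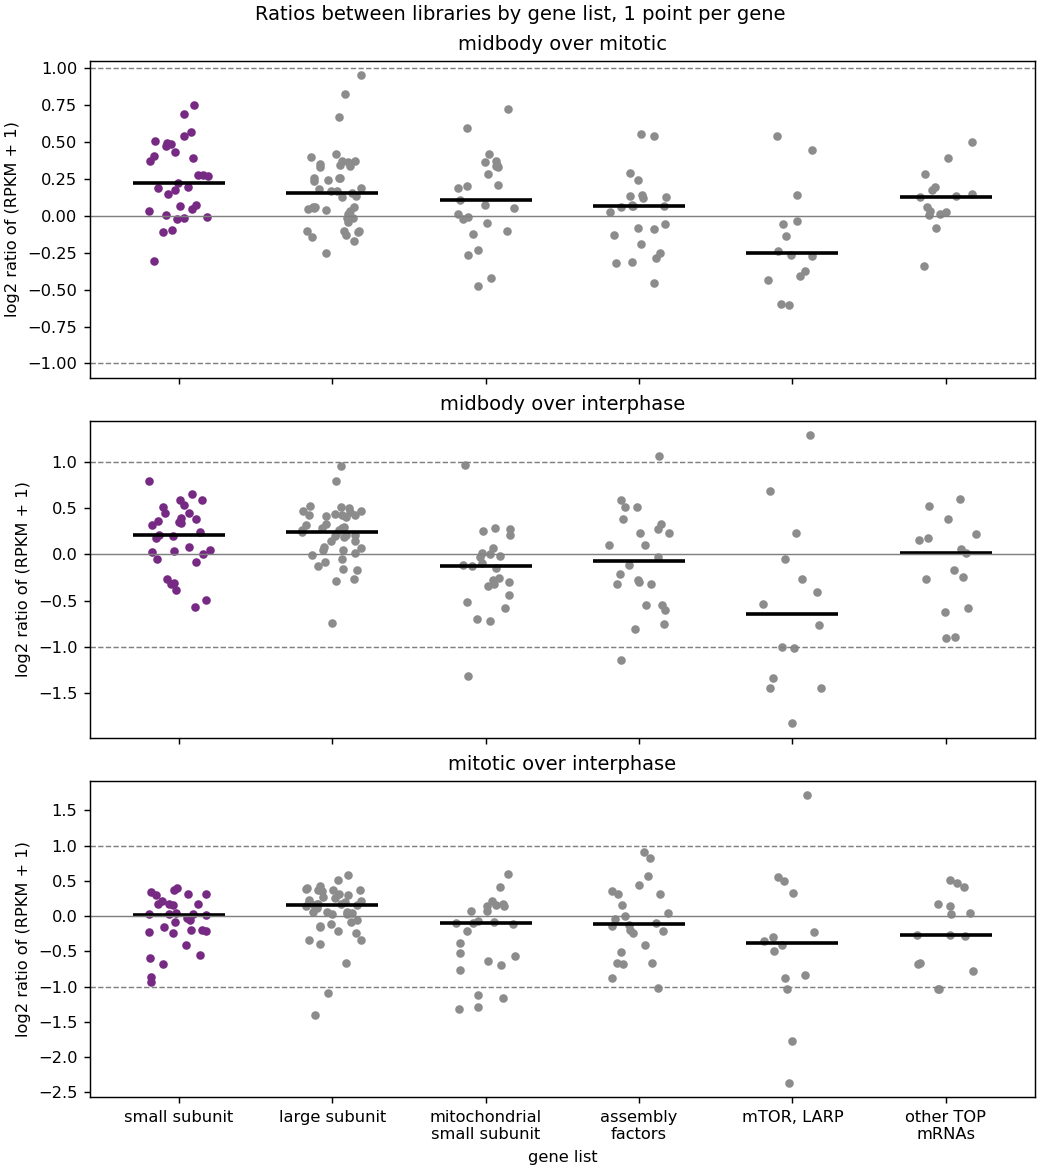
Log2 ratio of (RPKM + 1) for each gene (points, spread sideways for sight only) of 6 lists in 3 comparisons between single libraries; black bars are medians and dashed lines mark 2-fold. Small subunit members (left, coloured) stay inside 2-fold in every panel, with medians of 0.22, 0.21 and 0.02 from top to bottom, while the mTOR and LARP list has medians of -0.25, -0.65 and -0.38.

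The ranking of the members by level was kept best between midbodies and the mitotic sample. Over the 31 members, Spearman's rho of RPKM was 0.86 between midbodies and the mitotic sample, 0.72 between midbodies and interphase and 0.65 between the mitotic sample and interphase. These are descriptions across genes that share the same library preparation. Some members moved far. By RPKM among all transcripts, RPSA ranked 11 in interphase, 60 in midbodies and 102 in the mitotic sample, and RPS4X ranked 21, 138 and 91. RPS21, ranked 7 in midbodies, 21 in the mitotic sample and 20 in interphase by RPKM among all transcripts, was near the top of all 3 libraries, and RPS10, RPS26 and RPS27 made up the lower end in each. For RPS26 and RPS27 the kept transcript held only 50.8% and 49.1% of the midbody reads under its accession, so these ranks are those of 1 transcript. Another RPS26 transcript, XM_003508897.1, had 203 RPKM in midbodies, above the 167 of the kept one.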

How the data were processed

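Per the labels' protocols, RNA was isolated with Qiagen RNeasy, poly-A selected with an Exiqon dT kit and prepared with the Illumina TruSeq version 2 kit. Estimated counts per transcript (reads, some fractional) were deposited unnormalized. Per the file headers, the authors also gave RPKM. The best human protein match was deposited with its BLASTX E-value, an expectation related to a p-value, of at most 1e-20. Genome build, strand setting, aligner and counter were not given in the sources used here. Transcript lengths were derived from RPKM and reads.

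Log2 ratios used a pseudocount of 1 RPKM. Ratios quoted with an interval are ratios of reads per library total, reads being rounded to whole numbers. A count of 0 allows up to 3 reads, or 0.584 CPM in midbodies, 0.372 in the mitotic and 0.237 in the interphase library. Intervals cover counting error only. The procedure was tested on simulated data. Members and lists were chosen with earlier results of these data known. Named genes were members and, from each list, those with the 2 highest and 2 lowest ratios among transcripts with 50 reads, plus LARP1, MTOR, RPS6KB1, EIF4EBP1, EEF1A1, EEF2 and KIF23; a part of these is quoted. Alternatives were other pseudocounts, floors, scalings (among them the trimmed mean of M values), CPM, summed transcripts and subsets of members. Some members are counted but not reported by name here. Fau was added after the data were seen. Gene symbols came from RefSeq assembly CriGri-PICRH-1.0. Python 3.11.15, pandas 2.3.3 and SciPy 1.17.1 were used.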

Additional observations from a re-analysis of the deposited data

How the results depend on the processing

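Of the 174 values recomputed under the alternatives, 156 moved by no more than the counting error of the median member or, for counts, by no more than 1.5-fold. Every member lay above each floor tried, so changing the floor could not alter any member value, and part of these values could not move. The medians of midbodies against the mitotic sample and against interphase kept their sign under every alternative run. No member passed 2-fold under the other pseudocounts, the other scalings, CPM or summed transcripts. Subsets of the members could not have given a member past 2-fold, since the full set had none. The mitotic to interphase median is near 0. It was -0.12 over members without fractional reads and -0.16 over those with a single transcript per accession, sets of fewer genes. At 1.5-fold, a pseudocount of 5 left 2 members higher in midbodies than in interphase. Members without fractional reads gave counts of 1 higher in midbodies than in the mitotic sample, 1 higher than in interphase and 2 lower in the mitotic sample than in interphase, and members with a single transcript gave 1, 0 and 2. Summing all transcripts of an accession put the share of reads at 0.614% in midbodies, 0.519% in the mitotic sample and 0.586% in interphase. With Fau added, chosen after seeing the data, the shares were 0.582%, 0.494% and 0.556%. As shares of RPKM, the 31 members without Fau held 2.06%, 1.81% and 1.78%, which turned the order of the mitotic sample and interphase. No paired analysis was possible because each group has a single library. Depth limits members least in interphase and most in midbodies, where RPS27 had the fewest reads, 265.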
